A study of Gallus gallus with 5 samples.

Results

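The genes described are the kinases, phosphatases, adaptors and feedback inhibitors that carry insulin, energy and growth factor signals inside the liver cell, in broiler breeder hens on 2 levels of feed. They were taken by symbol from the count table: AMP-activated protein kinase and protein kinase A subunits (PRKA), protein kinase C (PRKC), AKT, phosphoinositide 3-kinases (PIK3), the insulin receptor and its substrates, MAP kinases and the kinases above them, dual-specificity phosphatases (DUSP), protein phosphatases 1 to 6 (PPP), ribosomal S6 kinases (RPS6K), pyruvate dehydrogenase kinases (PDK), SOCS proteins and GRB adaptors. Of 6286 entries in the table, 70 matched by symbol and 67 of these had at least 10 counts in 2 or more of the 5 hens. All 67 entered the test. The AMPK subunit genes PRKAA2 (7 and 8 counts in FF, and 1, 6 and 12 in RF), PRKAG3 (4 to 7 counts) and PRKAG1 (listed at 0 in every hen) fell short. The lowest member by its second-highest count was MAPK11, with 21 to 25 counts per hen. The genes of the insulin receptor and its substrates were not analysed here.

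Livers came from 2 hens given feed ad libitum (FF1 and FF2) and 3 hens given a restricted allowance (RF1, RF2 and RF3), with the feeding levels set at 38 weeks of age. All 5 were broiler breeders, the parent stock of meat chickens, which are commonly kept on limited feed. The libraries were of bulk RNA, from separately numbered hens, and a further FF hen that the protocol counts was not analysed here. The labels give no strain, age at sampling or batch.

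Library totals ran from 2666609 estimated counts (FF2) to 4622392 (FF1), and the 67 genes held 0.36% to 0.40% of them. FF2, the shallowest library, stood apart: on the first principal component of all tested genes, with 50.7% of the variance, it lay at 44.6 and the other hens between -28.1 and -1.76. Hepatocyte genes were abundant in every hen (14 of 18 listed markers had rows, summing to 187877 to 271292 CPM), with ALB listed at 0 throughout. CPM is the count divided by the TMM-scaled library size and set to a common total. It is not corrected for transcript length, so levels are compared between hens and not between genes.

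In the fed liver, insulin binds its receptor and acts through phosphoinositide 3-kinase and AKT to promote storage of nutrients, while S6 kinase passes the signal on to protein synthesis. In a fasted or energy-poor cell, AMP-activated protein kinase (AMPK) and the glucagon-driven protein kinase A act in the opposite direction on many of the same enzymes. MAP kinases carry growth factor and stress signals in a chain of kinases. Some dual-specificity phosphatases, Sprouty proteins and SOCS proteins are induced by such signals and damp them. The mRNA of these genes does not show how far the proteins were phosphorylated.

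The kinase and phosphatase genes as a whole were balanced between higher and lower values. Their median log2 fold change, FF over RF, was -0.01, beside 0.01 over all 4309 genes tested, with 32 genes above 0 and 35 below. The median size of the change, without its sign, was 0.25 on the log2 scale for these genes and 0.33 for all. By edgeR's quasi-likelihood test with Benjamini-Hochberg adjustment over all genes, 0 of the 67 passed an adjusted p of 0.05, where 0.0464% of all genes did (2 of 4309). The smallest adjusted p was 0.136, for MAPK6. An unadjusted p under 0.05 was found for 6 of the 67 (8.96%), against 9.35% of all genes: 3 lay higher in FF (PRKAG2, PRKCD and MAPK6), with a background of 4.41%, and 3 lower (PRKAB2, DUSP4 and PPP1R16B), with a background of 4.94%. FF and RF hens did not overlap in 17 of the 67 genes (25.4%), against 27% of all genes. FF lay above in 7 of them (background 13.1%) and below in 10 (background 13.9%). Both shares are close to those of all genes. DESeq2 called 1 of the 67, MAPK6, with 1.83% of all genes called, and limma-voom called 0 of them, with 0.0696% of all genes called.

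**Figure D1:**
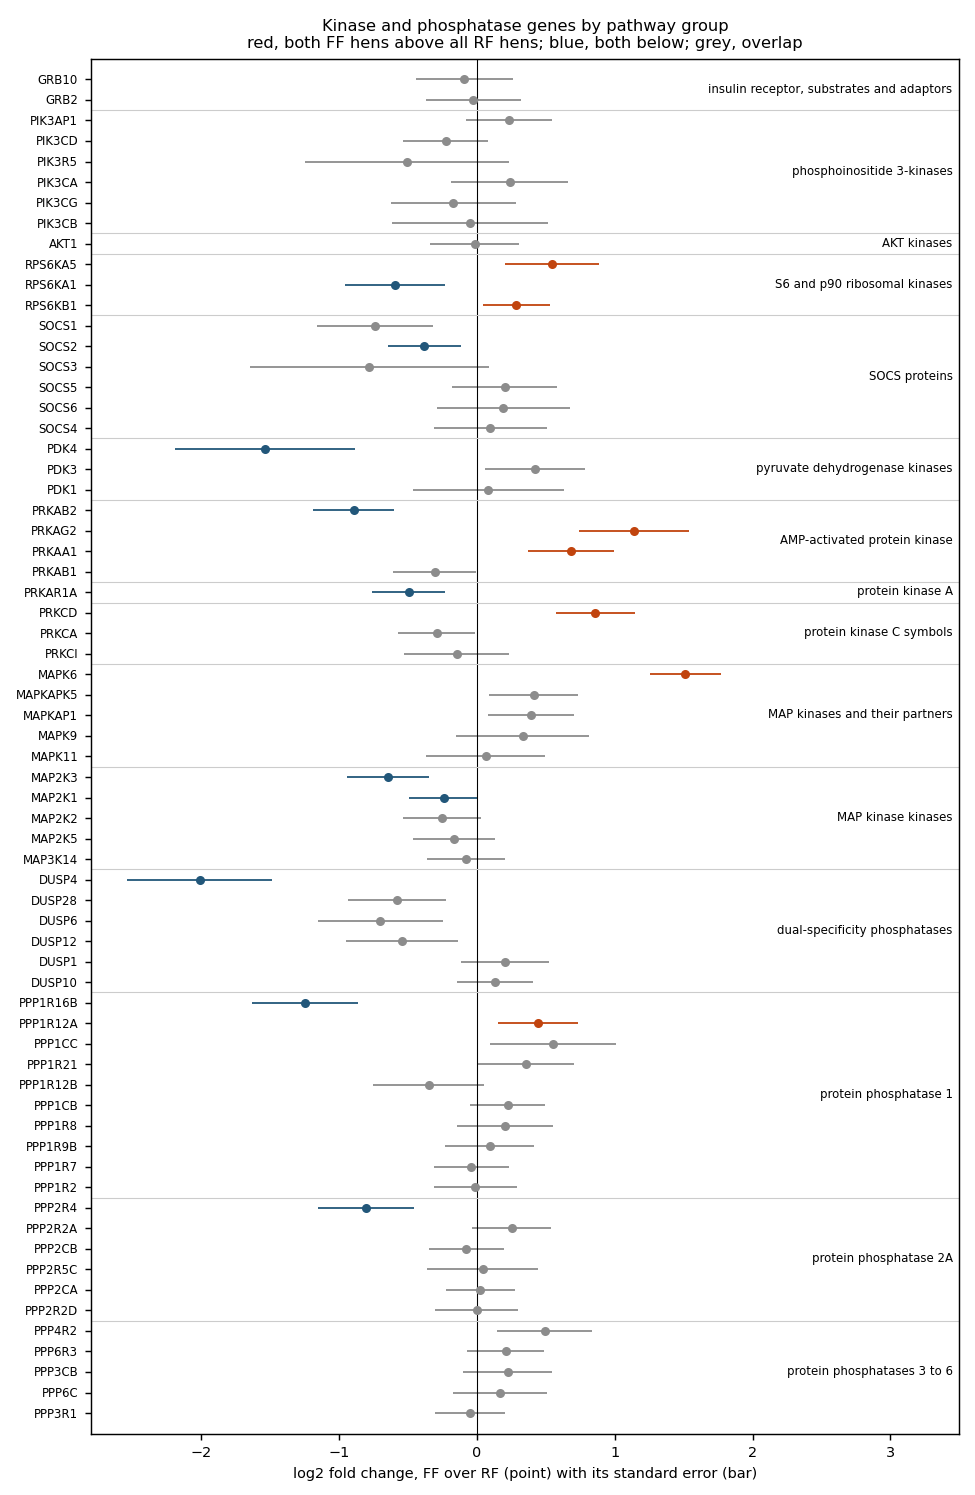
Log2 fold change of FF over RF for the kinase and phosphatase genes (points) with its standard error (bars), in 15 pathway groups. The 7 red genes had both FF hens above all RF hens, the 10 blue genes both below, and MAPK6 at 1.51 and DUSP4 at -2.01 lay farthest from 0 on either side.

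The number of genes at an unadjusted p under 0.05 depended on single hens. Without FF1 it was 16 of 67 (8 higher and 8 lower, with 22.8% of all genes under that p), and without FF2 it was 2 (1 and 1, with 7.09% of all genes). Without RF1, RF2 or RF3 it was 3 and 3, 1 and 4, and 1 and 3, with 5.53%, 5.53% and 9.08% of all genes. FF2 was the highest or the lowest of the 5 hens in 71.6% of the 67 genes (26 highest and 22 lowest), as it was in 61.8% of all genes. RF3 was the highest or lowest in 20.9% of the 67, beside 29.8% of all genes.

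MAPK6 had the clearest separation between feeding levels. It encodes ERK3, an atypical MAP kinase that lacks the usual pair of activating phosphorylation sites. It stood at 245 CPM in FF1 and 275 in FF2, and at 97.9, 78.4 and 97.0 in RF1, RF2 and RF3. Both FF hens thus lay far above the RF hens, which were close together. The means were 260.2 ± 21.3 CPM (SD, n = 2) and 91.1 ± 10.99 CPM (SD, n = 3), which made FF higher by 1.51 ± 0.26 (SE) on the log2 scale (adjusted p = 0.136 by the edgeR test). DESeq2 gave an adjusted p of 9.86e-05. The log2 fold change stayed between 1.42 and 1.59 in all 10 alternatives, those that leave out 1 hen included, and its adjusted p ran from 9.86e-05 to 0.624 (edgeR, limma-voom or DESeq2). On the GRCg7b annotation of RefSeq, an uncharacterised gene overlaps MAPK6. The nearest tested genes on either side were MYO5A, at a log2 fold change of 0.08, and TMOD3, at 0.59.

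Another 4 genes with MAPK symbols showed no such separation, and all of them overlapped between groups. Only 27% of all genes tested had no overlap, so overlap in these 4 genes shows little. MAPK9, a JUN N-terminal kinase, ran from 12.5 CPM in FF1 to 38.5 in FF2, with the RF hens at 15.3 to 24.1. MAPK11, a p38 kinase, lay between 4.72 and 7.64 CPM in all hens. MAPKAPK5, a kinase known to bind ERK3, stood at 18.1 and 29.1 CPM in FF and 15.5 to 19.9 in RF. MAPKAP1, a subunit of the mTORC2 complex, stood at 23.6 and 36.0 CPM in FF and 18.8 to 25.4 in RF. FF2 was the highest hen for each of these 4 genes, and the median log2 fold change of the 6 MAPK symbols was 0.36 with it and -0.12 without it.

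**Figure D2:**
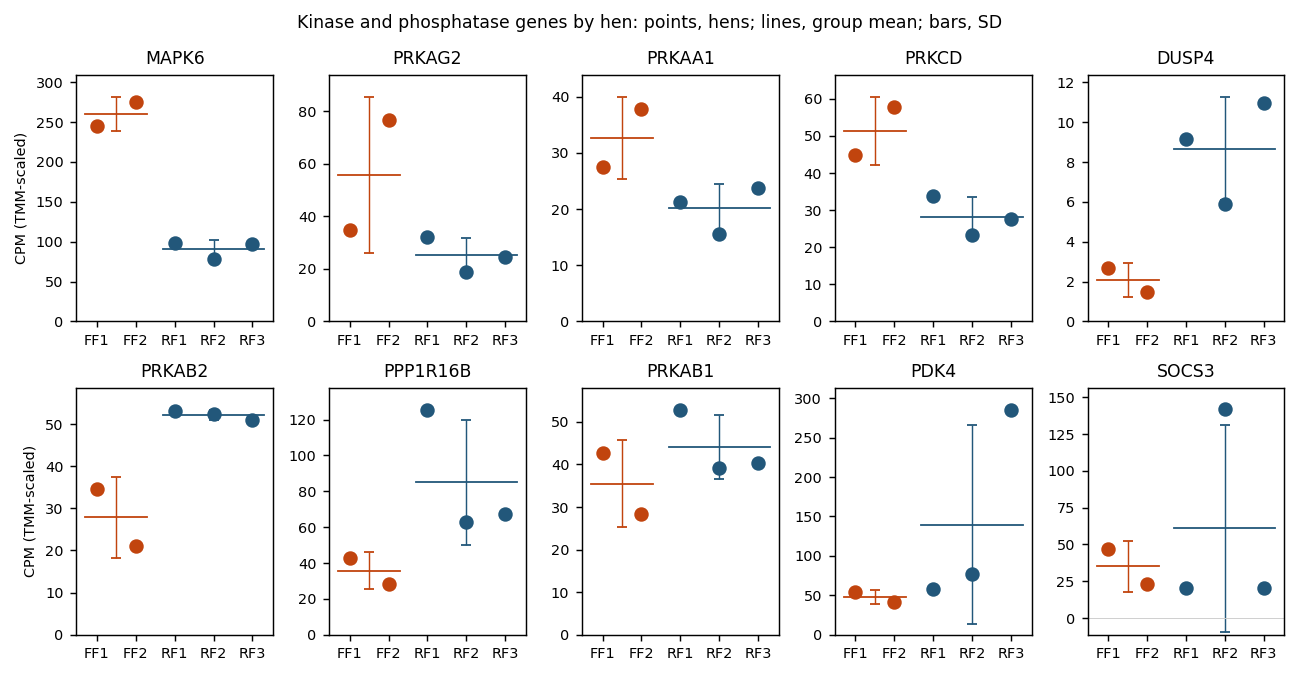
CPM (vertical axes, a separate scale for each gene) of 10 genes in each hen, with FF in red and RF in blue. Horizontal lines are group means and bars are SD (FF n = 2, RF n = 3). MAPK6 separates the feeding levels with little spread within them, and PDK4 and SOCS3 each have 1 RF hen far above the rest.

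Kinases upstream of the MAP kinases, 5 genes in all, each had a log2 fold change below 0, with a median of -0.24. Of all genes tested, 2127 of 4309 lay below 0. None of the 5 had an unadjusted p under 0.05 by edgeR (9.35% of all genes), and 2 had groups that did not overlap (27% of all genes). The sign of MAP2K5 and MAP3K14 rested on single hens, with MAP2K5 at 0.16 without FF2 and MAP3K14 at 0.13 without FF1. MAP2K3, which activates p38, stood at 82.9 and 52.7 CPM in FF1 and FF2, and at 113, 117 and 89.0 in RF1, RF2 and RF3. Both FF hens lay below the RF hens, FF1 narrowly. The difference was -0.64 ± 0.30 on the log2 scale (adjusted p = 0.562 by the edgeR test) and -0.34 without FF2. MAP2K1, which activates ERK, stood at 49.6 and 53.1 CPM in FF and at 66.8, 54.3 and 60.8 in RF. The groups did not overlap, though FF2 and RF2 were nearly level, and the log2 fold change was -0.24 ± 0.25. MAP2K2, MAP2K5 and MAP3K14, the last a kinase of the noncanonical NF-kappa-B route, overlapped between groups.

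Among the dual-specificity phosphatases, of which some but not all remove phosphate from MAP kinases, DUSP4 lay farthest apart. DUSP4, a nuclear phosphatase of ERK and other MAP kinases, rested on few reads, with 13 and 4 counts in FF1 and FF2 and 39, 20 and 47 in RF1, RF2 and RF3. This corresponds to 2.67 and 1.45 CPM in FF and to 9.18, 5.87 and 10.98 CPM in RF. The FF hens lay below every RF hen, by a log2 fold change of -2.01 ± 0.53 (adjusted p = 0.329 by the edgeR test). It stayed between -2.56 and -1.69 in the 10 alternatives, with adjusted p from 0.0833 to 0.784 (edgeR, limma-voom or DESeq2). DUSP6, a cytoplasmic phosphatase of ERK that ERK signalling induces, stood at 60.7 and 21.5 CPM in FF and at 68.3, 84.9 and 49.5 in RF. Here FF1 lay among the RF hens and the log2 fold change of -0.70 ± 0.45 shrank to -0.14 without FF2. DUSP1, an immediate early gene that acts mainly on p38 and JNK, stood at 123 and 220.3 CPM in FF and 136 to 160.3 in RF (0.20 ± 0.32, and -0.26 without FF2). DUSP10 varied least of the 67 genes within groups, at 17.5 to 21.5 CPM in all hens. DUSP28 and DUSP12 overlapped between groups, and 4 of the 6 genes lay below 0, beside 2127 of all 4309 genes tested.

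The subunits of AMPK lay on both sides. AMPK is a complex of a catalytic alpha, a scaffolding beta and an AMP-sensing gamma subunit, each encoded by more than 1 gene. PRKAB2, the beta-2 subunit, stood at 34.7 CPM in FF1 and 21.1 in FF2, and at 53.2, 52.3 and 50.9 in RF1, RF2 and RF3. The RF hens were nearly level and both FF hens were lower, with -0.89 ± 0.29 on the log2 scale (adjusted p = 0.457 by the edgeR test; -0.58 without FF2). PRKAG2, the gamma-2 subunit, stood at 34.9 and 76.7 CPM in FF and at 32.0, 18.8 and 24.5 in RF. FF1 lay just above RF1, and FF2 well above all. The difference of 1.14 ± 0.40 on the log2 scale (adjusted p = 0.484 by the edgeR test) was 0.48 without FF2. PRKAA1, the alpha-1 subunit, stood at 27.5 and 37.8 CPM in FF and at 21.2, 15.6 and 23.8 in RF. Both FF hens again lay above the RF hens, by 0.68 ± 0.31 on the log2 scale (edgeR quasi-likelihood, adjusted p = 0.553; 0.45 without FF2). PRKAB1, the beta-1 subunit, overlapped, at 42.7 and 28.4 CPM in FF and 39.1 to 52.7 in RF (-0.31 ± 0.30). Of the 4 AMPK genes 3 therefore had groups that did not overlap, 2 with FF above and 1 with FF below (27% of all genes, 13.1% above and 13.9% below), and 0 passed over all genes by the edgeR test.

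Ratios of related genes within a library do not depend on the scaling, and 6 pairs, picked after their values were seen, were compared between hens. The ratio of PRKAB2 to PRKAB1 was 0.813 and 0.744 in FF1 and FF2, and 1.01, 1.34 and 1.26 in RF1, RF2 and RF3. It was lower in both FF hens than in each RF hen, by 0.62 on the log2 scale. The ratio of PRKCD to PRKCA was 0.932 and 0.946 in FF, and 0.419, 0.399 and 0.452 in RF, higher in both FF hens by 1.15 on the log2 scale. Its denominator is uncertain, since PRKCA overlaps the abundant gene APOH on the GRCg7b annotation. No p is given for the ratios, as the pairs were chosen on these values. The groups overlapped for MAP2K1 to MAP2K2, PIK3CA to PIK3CB, PPP1CC to PPP1CB and PPP2CA to PPP2CB. The size of a ratio depends on the lengths of both transcripts and is read here only between hens.

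**Figure D3:**
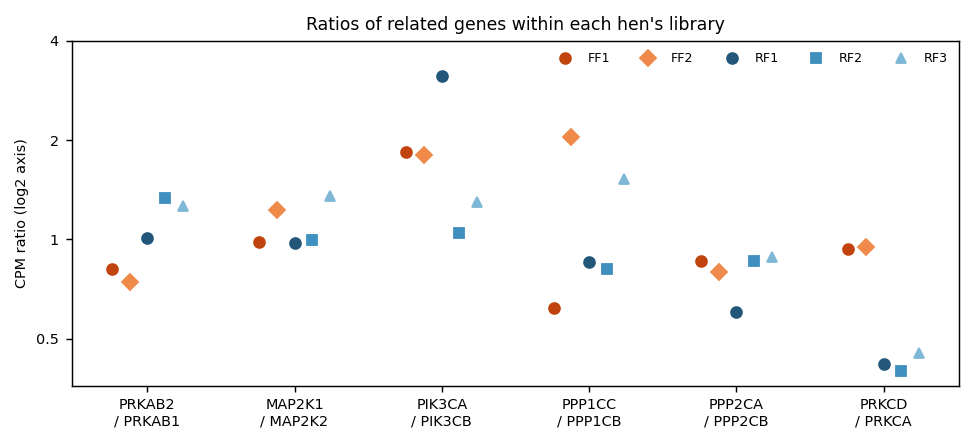
CPM ratio of 6 pairs of related genes (log2 axis) in each hen, 1 point per hen. The PRKAB2 to PRKAB1 ratio lies between 0.744 and 0.813 in FF and at 1.01 or more in RF, and the PRKCD to PRKCA ratio at 0.932 or more in FF and at most 0.452 in RF, with an uncertain PRKCA count.

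Protein kinase C genes were led by PRKCD. It encodes the delta form, which diacylglycerol activates without calcium. PRKCD stood at 44.9 and 57.8 CPM in FF1 and FF2, and at 33.9, 23.2 and 27.6 in RF1, RF2 and RF3. The FF hens were the higher 2 of the 5, with 0.86 ± 0.29 on the log2 scale (adjusted p = 0.457 by the edgeR test), which was 0.68 without FF2. PRKCA, the calcium-dependent alpha form, stood at 48.2 and 61.1 CPM in FF and 58.2 to 81.0 in RF. On the GRCg7b annotation PRKCA overlaps APOH, a plasma protein gene at 6505 to 10511 CPM here, and its count is uncertain for that reason. PRKCI, an atypical form that acts in cell polarity, also overlapped between groups. PRKAR1A, a regulatory subunit of protein kinase A and the member for that kinase, stood at 214 and 199 CPM in FF and at 281, 266 and 326 in RF. Each RF hen lay above both FF hens, at -0.50 ± 0.26 on the log2 scale (edgeR quasi-likelihood, adjusted p = 0.594).

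For the adaptors, phosphoinositide 3-kinases and AKT, 9 genes in all, feeding levels overlapped in each gene and 0 had an unadjusted p under 0.05 by edgeR. Over all genes, 27% had no overlap and 9.35% had such a p, so a count of 0 in 9 genes shows little. The errors of several of the 9 genes were wide. AKT1, the kinase that carries the insulin signal onward, stood at 52.9 and 64.4 CPM in FF and at 80.5, 45.8 and 51.2 in RF (-0.02 ± 0.32 on the log2 scale). The adaptor GRB2, which links receptors to RAS, stood at 97.0 and 46.2 CPM in FF and at 67.3 to 79.9 in RF (-0.03 ± 0.35). GRB10, an adaptor that inhibits the insulin receptor, lay at 9.35 to 14.1 CPM in all hens (-0.09 ± 0.35). The catalytic subunits PIK3CA and PIK3CB lay at 0.24 ± 0.42 and -0.05 ± 0.57, with the hens of a group differing by more than the groups did. PIK3AP1, PIK3CD, PIK3CG and PIK3R5 are best known from white blood cells. PIK3AP1 lay at 0.23 ± 0.31 and PIK3CD at -0.23 ± 0.31, and PIK3R5 ranged from 1.09 CPM in FF2 to 10.6 in RF2. Macrophage markers (8 of 13 listed had rows) summed to 3889 and 2341 CPM in FF and 3393 to 5660 in RF, and T and B cell markers (9 of 11) to 134 and 270.03 CPM in FF and 121 to 171 in RF. The part of these cells in the PIK3 values was not tested. In bulk RNA, fewer cells of a type and less RNA per cell cannot be told apart.

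All 3 ribosomal kinase genes had groups that did not overlap, beside 27% of all genes, and they lay on both sides. RPS6KB1, the S6 kinase downstream of mTOR, stood at 81.6 and 83.3 CPM in FF and at 72.5, 60.2 and 69.9 in RF. The FF hens were level with each other and just above the RF hens (0.29 ± 0.24 on the log2 scale; edgeR quasi-likelihood, adjusted p = 0.720). RPS6KA5, a nuclear kinase downstream of ERK and p38, stood at 17.2 and 22.5 CPM in FF and at 14.1, 9.99 and 16.4 in RF (0.55 ± 0.34). RPS6KA1, a p90 kinase that ERK activates, stood at 129.8 and 58.9 CPM in FF and at 154, 145 and 130.2 in RF. FF1, at 129.8, was level with RF3, at 130.2, so the log2 fold change of -0.59 ± 0.36 rested on FF2 and was -0.12 without it.

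SOCS genes, whose proteins block cytokine and insulin receptor signalling, had 1 gene of 6 with no overlap, beside 27% of all genes. SOCS2, which growth hormone induces and whose protein limits growth hormone signalling, stood at 104 and 108 CPM in FF and at 125, 167 and 125 in RF. Both FF hens lay below, at -0.38 ± 0.27 on the log2 scale (edgeR quasi-likelihood, adjusted p = 0.668), or -0.23 without RF2. SOCS3, an inhibitor induced by interleukin-6 and similar cytokines, was set by 1 hen. It stood at 142 CPM in RF2 and at 20.5 and 20.1 in RF1 and RF3, with FF1 at 47.2 and FF2 at 22.9. Its log2 fold change of -0.78 ± 0.86 became 0.80 without RF2. SOCS1 overlapped, at 21.5 and 14.5 CPM in FF and at 17.4, 30.8 and 42.8 in RF (-0.74 ± 0.42, and -0.40 without RF3). SOCS4, SOCS5 and SOCS6 lay between 5.09 and 12.7 CPM in all hens.

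Pyruvate dehydrogenase kinases switch off the entry of pyruvate into the citrate cycle, and PDK4 is the member best known to be induced by fasting. PDK4 stood at 54.4 and 41.8 CPM in FF1 and FF2, and at 57.7, 77.0 and 285 in RF1, RF2 and RF3. No FF hen reached the RF hens, but RF1 was close to FF1 and RF3 stood far above all. The difference of -1.54 ± 0.65 on the log2 scale (adjusted p = 0.553 by the edgeR test) was -0.48 without RF3. PDK3 stood at 68.3 and 118 CPM in FF and 47.3 to 87.6 in RF (0.42 ± 0.36, and -0.01 without FF2). PDK1 stood at 11.3 and 3.64 CPM in FF and 4.99 to 8.47 in RF, at 0.08 ± 0.55 on the log2 scale (0.65 without FF2 and -0.995 without FF1).

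The protein phosphatase genes, catalytic and other, had a similar size of change. Its median, without the sign, was 0.19 on the log2 scale for 6 catalytic subunits and 0.21 for the 15 other PPP genes. All 6 catalytic subunits, PPP1CB, PPP1CC, PPP2CA, PPP2CB, PPP3CB and PPP6C, overlapped between groups, at log2 fold changes of -0.08 to 0.55. With 27% of all genes free of overlap, a count of 0 in 6 genes shows little. PPP2CA, the main catalytic subunit of phosphatase 2A, stood at 81.8 and 96.4 CPM in FF and at 80.0, 84.3 and 97.9 in RF (0.03 ± 0.25). PPP1CC was higher in FF2, at 90.2 CPM, than in the other 4 hens, at 30.4 to 49.5, and had the highest log2 fold change of the 21 PPP genes, 0.55 (-0.41 without FF2). Of the 15 other PPP genes, 3 had groups that did not overlap, beside 27% of all genes.

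PPP1R16B had the lowest log2 fold change of the 21 PPP genes. It encodes TIMAP, a membrane-bound partner of phosphatase 1 that is best known from endothelial cells. PPP1R16B stood at 43.1 and 28.4 CPM in FF1 and FF2, and at 125, 62.9 and 67.3 in RF1, RF2 and RF3. All RF hens lay above both FF hens, RF1 by the widest margin, and the difference was -1.25 ± 0.39 on the log2 scale (adjusted p = 0.457 by the edgeR test), or -0.86 without RF1. Endothelial markers also summed lower in both FF hens than in the RF hens. The 5 of 11 listed markers with rows summed to 177 and 225 CPM in FF and to 290 to 354 in RF. All 5 had log2 fold changes below 0, beside 2127 of all 4309 genes tested, and none was listed at 0 in all hens. KDR and LYVE1 did not overlap between groups, while CDH5, FLT1 and ERG did. Over all genes, 27% had no overlap, 13.9% with FF below. Within FF, FF1 had the lower marker sum and the higher PPP1R16B value. Single markers differed in this, as KDR and LYVE1 were higher in FF1 (67.1 and 8.20 CPM) than in FF2 (52.7 and 6.91). CDH5, FLT1 and ERG were lower in FF1. Of the RF hens, RF1 had both the highest marker sum and the highest PPP1R16B value. The part of endothelial cells in the PPP1R16B value was not tested.

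PPP2R4, an activator of phosphatase 2A also known as PTPA, stood at 152 and 76.4 CPM in FF and at 190.2, 231 and 179.7 in RF. Both FF hens were lower, at -0.80 ± 0.35 on the log2 scale (edgeR quasi-likelihood, adjusted p = 0.545), or -0.38 without FF2. On GRCg7b it overlaps CRAT. PPP1R12A, the myosin phosphatase targeting subunit, stood at 45.3 and 72.4 CPM in FF and at 45.2, 41.4 and 42.8 in RF, where FF1 was level with RF1. PPP2R2A, PPP4R2 and PPP6R3, regulatory subunits of phosphatases 2A, 4 and 6, lay at 0.25 ± 0.29, 0.49 ± 0.34 and 0.21 ± 0.28. Each was highest in FF2 and lowest in RF2, and each overlapped between groups. Without FF2 they lay at 0.0058, 0.08 and 0.049.

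Compared as pathways, the groups with more than 1 gene had median log2 fold changes from -0.56 to 0.36. The dual-specificity phosphatases were lowest at -0.56, and the MAPK symbols highest at 0.36. The -0.56 falls between DUSP28 at -0.58 and DUSP12 at -0.54. DUSP4 and DUSP6 lay lower, at -2.01 and -0.70, and DUSP10 and DUSP1 lay above 0, at 0.13 and 0.20. The other medians were -0.06 for adaptors, -0.11 for phosphoinositide 3-kinases, 0.29 for ribosomal kinases, -0.14 for SOCS, 0.08 for pyruvate dehydrogenase kinases, 0.19 for AMPK, -0.15 for protein kinase C, -0.24 for MAP kinase kinases, 0.15 for phosphatase 1, 0.01 for phosphatase 2A and 0.21 for phosphatases 3 to 6. For the phosphoinositide 3-kinase genes, FF1 had the lowest median of the 5 hens, at -0.38 (log2 CPM less the 5-hen mean of each gene), and FF2 the highest, at 0.46. For the MAP kinase kinases both FF hens lay below all RF hens, at -0.08 and -0.25 against 0.02 to 0.24. The dual-specificity phosphatases were placed likewise, at -0.28 and -0.18 in FF against -0.09 to 0.36 in RF. The ribosomal kinases lay the other way, at 0.15 and 0.19 in FF against -0.28 to 0.07 in RF, although RPS6KA1 itself lay lower in FF. In every other group with more than 1 gene, the medians of FF and RF hens overlapped. Among single genes, 27% of all those tested had no overlap.

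**Figure D4:**
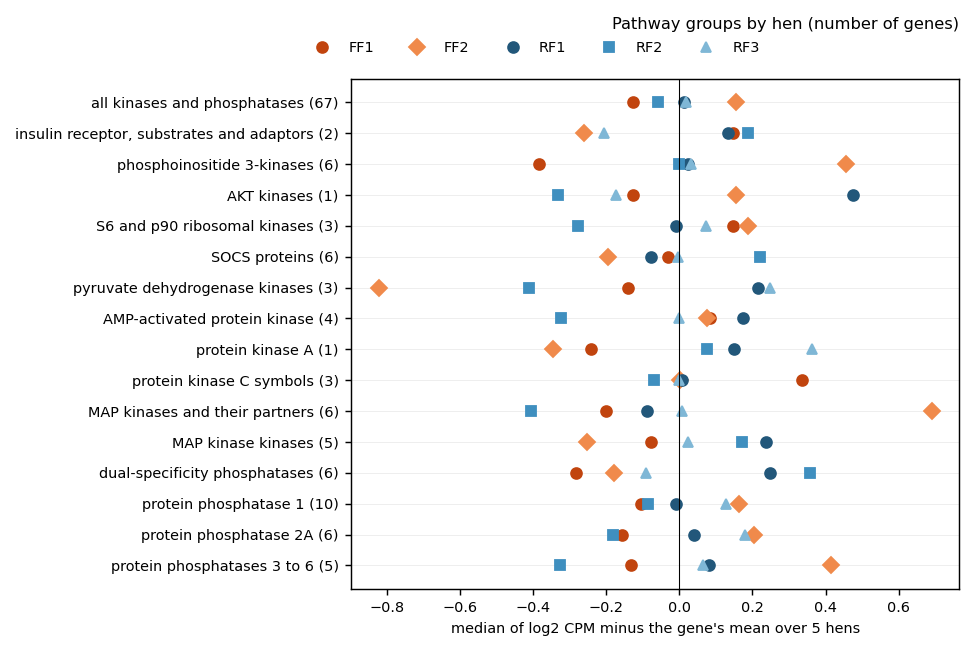
Median over each pathway group of log2 CPM relative to the gene's mean over the 5 hens (horizontal axis), with 1 symbol per hen and the number of genes in brackets. FF1 and FF2 lie on opposite sides of 0 in several groups, such as the phosphoinositide 3-kinases at -0.38 and 0.46.

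Genes that work beside these kinases, but belong to other families, were read from 3 lists. In the list of AMPK and protein kinase A partners, 11 of 40 genes were tested, 0 higher and 2 lower at an unadjusted p under 0.05 by edgeR (4.41% and 4.94% of all genes), and 0 passed over all genes, while DESeq2 called 2 (1.83% of all genes). SIK1 is a kinase of the AMPK family that cyclic AMP signalling induces. It stood at 23.6 and 41.8 CPM in FF1 and FF2, and at 184, 290.2 and 639 in RF1, RF2 and RF3. Both FF hens lay far below every RF hen, with a difference of -3.51 ± 0.55 on the log2 scale (adjusted p = 0.146 by the edgeR test). The difference stayed between -3.97 and -2.86 in the 10 alternatives (adjusted p 1.83e-07 to 0.484, edgeR, limma-voom or DESeq2). PDE4B, which degrades cyclic AMP, stood at 101 and 50.5 CPM in FF and at 293, 154 and 426 in RF, again with no overlap (-1.93 ± 0.48; edgeR quasi-likelihood, adjusted p = 0.329, DESeq2 adjusted p = 0.0135). PDE3B, the cyclic nucleotide phosphodiesterase that insulin activates, lay at -0.59 ± 0.28. ACACA, whose enzyme AMPK inhibits, stood at 3820 and 2846 CPM in FF1 and FF2, and at 887, 339 and 2706.5 in RF1, RF2 and RF3. The groups did not overlap, but RF3 was close to FF2. The difference was 1.35 ± 0.75 on the log2 scale (adjusted p = 0.596 by the edgeR test). It was 0.89 without RF2, 2.45 without RF3 and 2.59 with the replicate block, to which RF3 adds nothing.

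In the list of MAPK partners, 24 of 49 genes were tested, 3 higher and 3 lower at an unadjusted p under 0.05 by edgeR (4.41% and 4.94% of all genes), and 0 passed over all genes, while DESeq2 called 1, EGFR (1.83% of all genes). The median of the list was -0.06. EGFR, the receptor for epidermal growth factor, stood at 217 and 247 CPM in FF1 and FF2, and at 676, 392 and 642 in RF1, RF2 and RF3. The FF hens lay well below all RF hens, by -1.30 ± 0.33 on the log2 scale (adjusted p = 0.329 by edgeR and 0.0225 by DESeq2). The ERK inhibitors SPRY1 and SPRY2, which that pathway induces, lay lower with no overlap. SPRY1 stood at 11.1 and 10.2 CPM in FF and 14.3 to 28.5 in RF (-1.07 ± 0.38), and SPRY2 at 13.3 and 12.0 CPM in FF and 18.8 to 27.0 in RF (-0.83 ± 0.30). The transcription factor gene JUN lay the other way, at 192 and 308 CPM in FF and at 109.9, 146 and 106 in RF. The groups did not overlap, with FF higher by 1.05 ± 0.32 on the log2 scale (adjusted p = 0.431 by the edgeR test; 0.69 without FF2). FOS, the partner of JUN, and the receptor FGFR3 were the other 2 higher genes, at 0.82 ± 0.34 and 0.67 ± 0.27, and are named after their values were seen. EGR1, MYC and SPRED1, likewise named afterwards, overlapped between groups, at 0.33 ± 0.57, -0.25 ± 0.57 and -0.06 ± 0.31.

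In the list of insulin and mTOR partners, 9 of 44 genes were tested. By edgeR, 0 had an unadjusted p under 0.05 (9.35% of all genes) and 0 passed over all genes (0.0464%). DESeq2 and limma-voom also called 0 (1.83% and 0.0696% of all genes). At such shares a count of 0 in 9 genes shows little. PTPN1, the phosphatase that removes phosphate from the insulin receptor, stood at 21.3 and 25.8 CPM in FF and at 35.8, 30.3 and 48.1 in RF. All RF hens were higher, FF against RF being -0.70 ± 0.30 on the log2 scale (edgeR quasi-likelihood, adjusted p = 0.545). TBC1D1, IGF1R and the ribosomal protein RPS6, the target of S6 kinase, lay at 0.83 ± 0.48, -0.52 ± 0.29 and -0.38 ± 0.30. Without FF2, TBC1D1 lay at 0.14 and RPS6 at -0.17.

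**Figure D5:**
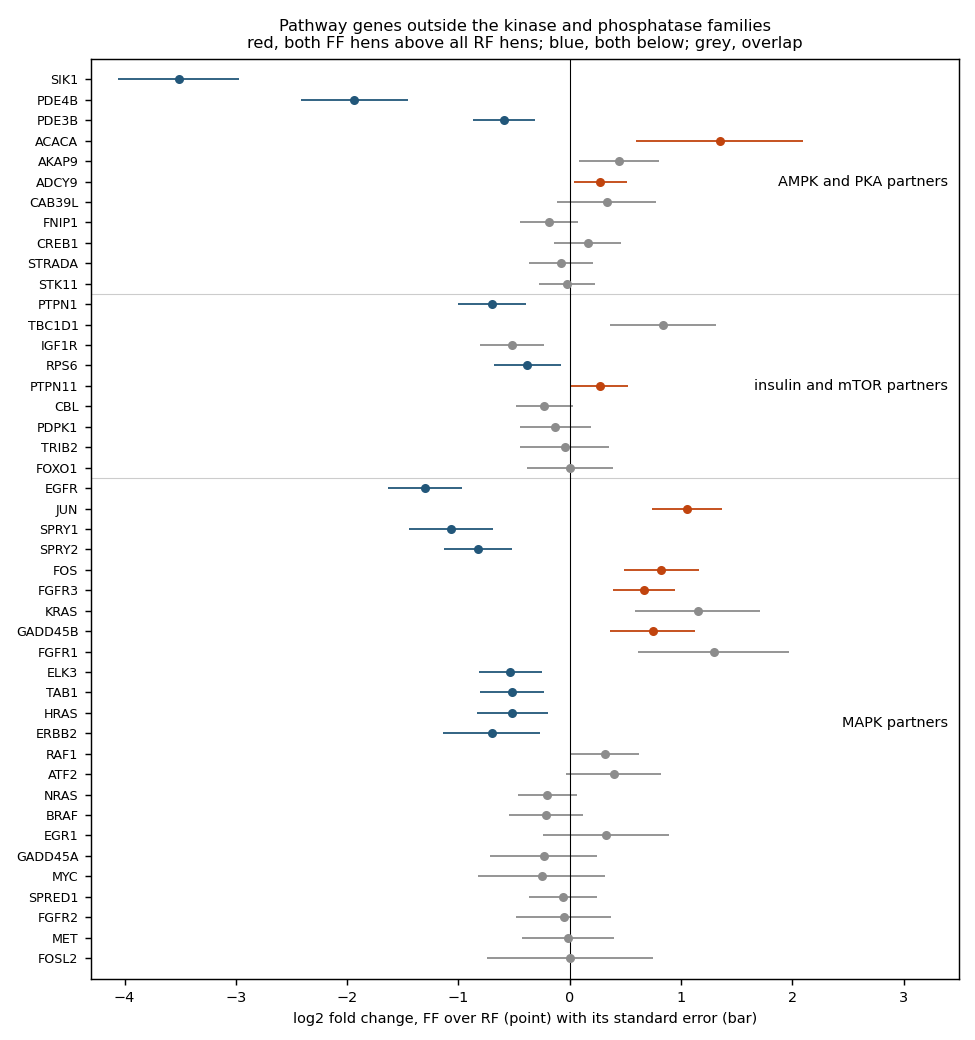
Log2 fold change of FF over RF with its standard error for the 44 tested genes of 3 partner lists. SIK1 at -3.51 and PDE4B at -1.93 lie farthest below 0, and EGFR, SPRY1 and SPRY2 lie below 0 where JUN and FOS lie above.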

How the data were processed

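Liver RNA of 2 FF and 3 RF hens was sequenced. The authors deposited estimated counts per gene symbol, not normalized as far as the column totals show, and 51 of 6286 entries held a value that was not whole, so counts were rounded. The submitters' processing notes list edgeR, Cuffdiff 2.2.1, TopHat2 2.0.13 and FastQC beside the build galGal4, without roles. The annotation and the handling of strand in counting are not stated there or in the labels. Of the 67 genes, 30 overlap another gene on GRCg7b, 10 of them one with an entry in the table, so these counts are uncertain, as are those of close paralogues.

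Genes were kept by filterByExpr (minimum count 10; 4309 kept and 1977 dropped), scaled by TMM and tested with edgeR 4.0.16 in R 4.3.3 (glmQLFit and glmQLFTest, two-sided, feeding group alone), with Benjamini-Hochberg adjustment and a threshold of 0.05. Standard errors came from the fitted weights and the moderated quasi-dispersion. The biological coefficient of variation was 32.4%. Alternatives were DESeq2 size factors, no filter, DESeq2 1.42.0, limma-voom (limma 3.58.1), the replicate number as a block, and each hen left out. Replicate 3 exists only in RF, so RF3 adds nothing to the difference in the block fit. That fit is therefore not independent of the one without RF3. The edgeR steps were also run on simulated counts, drawn independently for each hen. Those counts held no hen set apart as FF2 was, so they cannot show how the steps behave with such a hen. Precision is limited by 2 and 3 hens, and the labels do not state how hens were housed or pooled.

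The genes and lists were chosen with earlier results of these data known. Named were key signalling genes, up to 4 per direction and pathway at an unadjusted p under 0.05 (otherwise the 2 smallest), the 10 largest changes without overlap, and up to 4 per partner list; other genes are given as levels or ranges, and 1 gene is counted but not reported here. Of the marker lists, stellate cell markers summed to 1327 and 576 CPM in FF and 532 to 792 in RF, bile duct markers to 241 and 129 against 239 to 278, and red cell markers to 384 and 258 against 112 to 405.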

Additional observations from a re-analysis of the deposited data

How the results depend on the processing

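The median log2 fold change of all genes stayed between -0.02 and 0.02 in every alternative run, and 32 of the 67 genes kept their sign in all 10. The number of genes called over the whole table was 2, and 6 with no filter, 79 by DESeq2, 6 with the replicate block and 0 to 8 with 1 hen left out. DESeq2 called 1 of the 67, and 5 lower genes had an unadjusted p under 0.05 by DESeq2 (8 in all, with 9.94% of all genes under it). With the replicate block, 1 higher gene did (3 in all, with 5.64% of all genes), and with 1 hen left out 1 to 8 higher and 1 to 8 lower genes did (with 5.53% to 22.8% of all genes). With 1 hen left out, medians ran from -0.14 to 0.13 over the 67 genes, -0.32 to 0.11 for adaptors, -0.37 to 0.34 for phosphoinositide 3-kinases, -0.37 to 0.10 for SOCS, -0.995 to 0.21 for pyruvate dehydrogenase kinases, -0.19 to 0.29 for protein kinase C, -0.12 to 0.69 for MAPK symbols, -0.38 to -0.16 for MAP kinase kinases, -0.77 to -0.35 for dual-specificity phosphatases (-0.77 with the replicate block), -0.029 to 0.25 for phosphatase 1, -0.27 to 0.20 for phosphatase 2A, -0.078 to 0.49 for phosphatases 3 to 6 and 0.073 to 0.28 for AMPK.

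Among named genes, sign changes came with log2 fold changes of -0.17 to 0.27 for AKT1 (0.017 by limma-voom), -0.26 to 0.56 for DUSP1, -0.26 to 0.031 for GRB10, -0.67 to 0.42 for GRB2, -0.995 to 0.65 for PDK1, -0.0077 to 0.76 for PDK3, -0.23 to 0.59 for PIK3AP1, -0.42 to 0.71 for PIK3CA, -0.72 to 0.44 for PIK3CB (0.38 with the replicate block), -0.39 to 0.017 for PIK3CD, -0.083 to 0.13 for PPP2CA and -1.40 to 0.80 for SOCS3 with 1 hen left out. The cause was not tested. A hen left alone in its group is assumed to vary like the others. The replicate numbers name hens of different identity, and the labels do not pair them. Same-numbered hens deviated from their group means with correlations of -0.14 and -0.35. With 2 FF hens, FF1 and FF2 deviate by equal and opposite amounts, so these correlations cannot test a pairing. Genes under about 10 counts in a hen, such as DUSP4 in FF2, are limited by depth.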
